A study of Mus musculus with 4 samples.

Results

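The interferon response genes described here are 48 mouse genes that cells switch on when interferon or viral RNA is sensed, taken as a list of symbols and looked up in the gene tables of every library. All 48 symbols were found, under 49 identifiers, since Gbp6 has 2, out of 28694 genes measured. In each library 48 of the 49 identifiers had at least 1 UMI, a unique molecular identifier that stands for 1 captured RNA molecule. The members were ordered by role into 24 antiviral effectors, 3 RNA sensors, 7 transcription factors and feedback genes, 8 GTPases, 3 antigen processing genes and a group of 3 with Parp9, Parp14 and Dtx3l.

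Single-cell RNA was measured in 2 libraries of sorted epithelial cells of distal colon (DC), and in 2 libraries of the small intestine's 8th section (Si8). Both tissues came from mice of the RedMUC298trTg strain, 6 to 8 weeks old, with no treatment in the labels, and cells were sorted by the mCherry reporter. The sources used here do not give which promoter drives the reporter, whether mCherry-negative cells entered the libraries, or how many mice stand behind each. Thus p-values measure the spread between these libraries, which may be technical.

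Interferons are secreted proteins that bind receptors on the cell surface. Type I and type III interferons act through the JAK kinases and a transcription factor complex with STAT2 and IRF9, which binds the interferon-stimulated response element in promoters, while interferon gamma acts on promoters through the gamma-activated site. The induced proteins block viral RNA and protein synthesis, attack vacuoles that hold microbes and load peptides for T cells, and intestinal epithelium is known for its response to interferon lambda, a type III interferon.

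The promoters that carry these sites are shown because the members were tested together and the motifs are what many of them share in sequence. RefSeq held a promoter entry on GRCm38.p6 for 37 of the 48 members. In the 250 bases before the start, on both strands, 17 of the 37 (45.9%) held the core of the interferon-stimulated response element, which is GAAA, 2 bases of any kind, GAAA. Of all 27025 genes with an entry, 936 (3.46%) held it. The gamma-activated site TTCNNNGAA was found in 10 of 37 members (27%) and in 2197 of all genes (8.13%), and both motifs were found in 5 members (13.5%) and in 0.459% of all genes. The response element core was present in 10 of 20 effectors and in 6 of 6 GTPases, and in 1 of 5 transcription factors and feedback genes, while neither sensor, none of the 3 antigen processing genes and not the single gene of the Parp and Dtx3l group with an entry held it. A match is a description of letters, and a promoter with no match can hold the element elsewhere. Below, capitals mark every match of either motif on either strand, and a response element core on the opposite strand reads TTTC, 2 bases, TTTC.
Isg15: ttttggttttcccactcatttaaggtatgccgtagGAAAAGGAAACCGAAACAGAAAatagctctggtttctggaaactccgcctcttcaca
Ifit1: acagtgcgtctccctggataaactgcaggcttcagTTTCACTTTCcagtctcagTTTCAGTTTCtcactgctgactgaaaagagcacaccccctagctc
Oas3: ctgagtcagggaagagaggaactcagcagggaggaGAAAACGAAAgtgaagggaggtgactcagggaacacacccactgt
Ddx60: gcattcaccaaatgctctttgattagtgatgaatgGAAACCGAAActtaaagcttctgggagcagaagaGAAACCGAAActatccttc
Rsad2: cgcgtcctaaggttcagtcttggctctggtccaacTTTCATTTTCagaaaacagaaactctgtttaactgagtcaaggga
Igtp: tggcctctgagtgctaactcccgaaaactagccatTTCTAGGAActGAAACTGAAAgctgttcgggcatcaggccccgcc
Irf1: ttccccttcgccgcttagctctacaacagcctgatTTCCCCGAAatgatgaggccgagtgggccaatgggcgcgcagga
These stretches lie upstream of the annotated gene. Isg15 is at chr4:156200840-156200931 (minus strand) with 3 overlapping cores, Ifit1 at chr19:34640750-34640848 (plus strand) with 2, and Oas3 at chr5:120777690-120777769 (minus strand) with 1. Ddx60 is at chr8:61927999-61928086 (plus strand) with 2 cores, and Rsad2 at chr12:26456528-26456607 (minus strand) with 1. Igtp, at chr11:58199476-58199555 (plus strand), held 1 of each motif, and Irf1, at chr11:53769889-53769967 (plus strand), held the gamma-activated site alone. In the genome many members are neighbours. Ifit2, Ifit3, Ifit1bl1 and Ifit1 lie on chromosome 19 between 34550694 and 34650009 (GENCODE M21, GRCm38), Gbp7, Gbp3 and Gbp2 on chromosome 3 between 142530342 and 142638008, and Psmb9, Tap1 and Psmb8 on chromosome 17 between 34181987 and 34201454. The Ifit, Oas, Gbp, Irgm and Slfn families are close in sequence, so the split of reads among their members is uncertain.

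After filtering, 1831, 4724, 1491 and 2197 cells remained in DC 1, DC 2, Si8 1 and Si8 2, from libraries of 27136824, 66880457, 26075303 and 53675821 UMIs, and any pair of libraries shared 1 to 15 cell barcodes. Of 11 clusters made without the listed genes, 3 were goblet-like (cluster 2, 3 and 8), 1 was absorptive-like and 4 were cycling-like. Another was enteroendocrine-like with 33 cells, and clusters 4 and 6 had no name. They held 246 and 231 cells in DC 1 and 569 and 660 in DC 2. In Si8 1 they held 279 and 168, with 201 and 199 in Si8 2. Cluster 4 had the goblet markers Agr2 and Spdef and the immune markers Igkc and Jchain among its top genes. Cluster 6 was led by Paneth cell defensins, but its top genes in DC held 11 goblet and 0 Paneth markers. The goblet-like sums leave out both clusters. The goblet-like cells numbered 650 and 1139 in DC, against 712 and 783 in Si8. They carried the mucin Muc2 at 6281 and 6892 CPM (UMIs per 1000000 of the summed cells) in DC, against 15233 and 13644 CPM in Si8, and the absorptive-like cells carried it too, at 2329 to 6746 CPM. Of 23 immune markers, 2 and 7 had a UMI in goblet-like cells of DC and 11 and 12 in those of Si8, with a summed level of 0.858 and 2.52 CPM in DC, against 9.41 and 3.95 CPM in Si8. The pan-leukocyte marker Ptprc had 0 UMIs in the goblet-like cells of all 4 libraries. At a Leiden resolution of 1.5 an immune-like cluster with Rgs1 and Ccl5 among its top genes took 15 and 14 of these cells in DC, against 63 and 17 in Si8. At that resolution the goblet-like class was larger, with 954 and 1848 cells in DC, against 1009 and 1061 in Si8. In this larger class 35 members were lower in DC and 4 higher, which does not isolate the part of the immune-like cells.

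In goblet-like cells most interferon response genes were lower in DC than in Si8. Of the 48 genes, 43 had enough counts to be tested, and 33 of them were lower and 2 higher in DC by edgeR's quasi-likelihood test, while 20.8% of all tested genes were lower and 20.2% higher. The median log2 fold change (DC minus Si8) was -1.98 over the 43 and 0.0554 over all tested genes. Folds carry the TMM scaling factors and CPM do not. With library totals alone the median of all genes was 0.67, the share of all calls that were higher in DC was 85.6% and not 49.3%, and the listed genes had 31 lower and 4 higher. In bulk sums such as these, fewer cells with a transcript and less transcript per cell cannot be told apart. With every cell that had an immune marker UMI left out, the same counts of 33 lower and 2 higher were found. The plot of levels in goblet-like cells shows each member in each library.

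**Figure D1:**
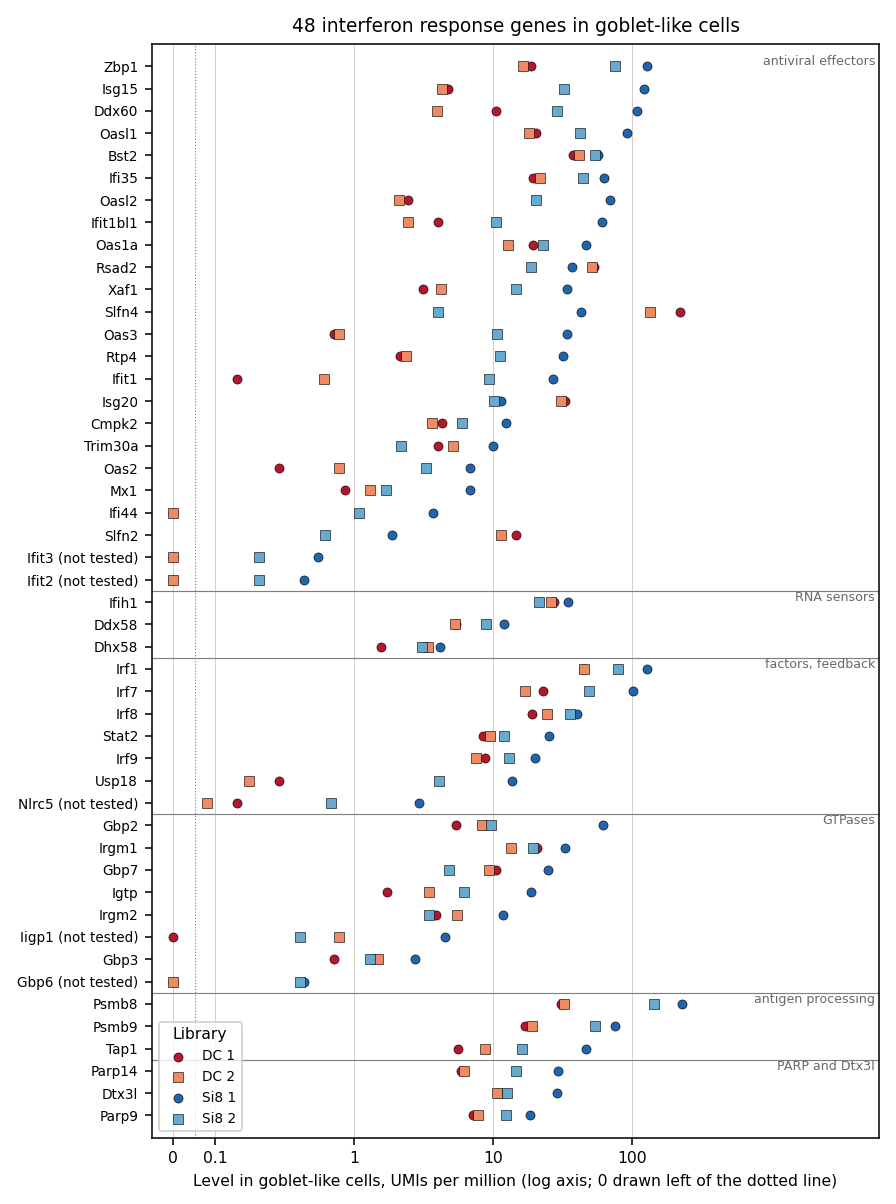
Level of the 48 genes in goblet-like cells, in UMIs per 1000000 UMIs on a log axis, grouped by role, with 1 point per library (red, DC; blue, Si8). The DC points lie left of the Si8 points for Isg15, Oas3 and Psmb8, and right of them for Slfn4, Slfn2, Rsad2 and Isg20.

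Of the 24 antiviral effectors 22 were tested in goblet-like cells, and 17 were lower and 2 higher in DC. Isg15, a ubiquitin-like protein that is coupled to other proteins, had 4.72 and 4.27 CPM in DC, against 122 and 32.1 CPM in Si8 (log2 fold change -4.72 ± 0.65 SE, edgeR adjusted p = 0.00156). Ifit1, which binds viral RNA that lacks a host cap, had 0.143 and 0.609 CPM in DC against 27.1 and 9.27 CPM in Si8 (-5.95 ± 0.75, edgeR adjusted p = 0.00108). The groups were apart for both genes, with Si8 1 the highest library. Oas3, an oligoadenylate synthetase whose product activates RNase L, had 0.715 and 0.783 CPM in DC, against 34.2 and 10.7 CPM in Si8 (-5.46 ± 0.7, edgeR adjusted p = 0.00117). Its relative Oasl2 had 2.43 and 2.09 CPM in DC, against 69.9 and 20.4 CPM in Si8 (-4.93 ± 0.65, edgeR adjusted p = 0.0013). Zbp1, a sensor of Z-form nucleic acid that can start necroptosis, had 18.6 and 16.5 CPM in DC, against 129 and 75.2 CPM in Si8 (-3.16 ± 0.28, edgeR adjusted p = 0.000246). These 5 genes did not overlap between the tissues. Ifi44 had no UMI in the goblet-like cells of either DC library and 50 UMIs in Si8, a level 12.9-fold lower or more in DC against a floor of 3 counts over the group, and the list's median stayed at -1.98 with it at this bound.

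The other effectors that were lower covered a wide range. Ifit1bl1 had 4 and 2.44 CPM in DC, against 60.5 and 10.4 CPM in Si8, and the helicase Ddx60 had 10.4 and 3.92 CPM in DC, against 109 and 28.6 CPM in Si8. Rtp4 had 2.15 and 2.35 CPM in DC, against 31.6 and 11.2 CPM in Si8, and Xaf1, an antagonist of the apoptosis inhibitor XIAP, had 3.15 and 4.18 CPM in DC, against 34.2 and 14.5 CPM in Si8. All 4 genes were lower in DC, by log2 folds of -4.1 to -3.3. Among the oligoadenylate synthetases, Oas2 had 0.286 and 0.783 CPM in DC, against 6.78 and 3.27 CPM in Si8, Oas1a 19.5 and 12.8 CPM in DC, against 46.8 and 22.7 CPM in Si8, and Oasl1, which in mice restrains translation of Irf7, 20.5 and 18.2 CPM in DC, against 91.6 and 41.9 CPM in Si8. Mx1, a dynamin-like antiviral GTPase, had 0.858 and 1.31 CPM in DC, against 6.78 and 1.7 CPM in Si8. Cmpk2, a mitochondrial nucleotide kinase next to Rsad2 on chromosome 12, had 4.29 and 3.66 CPM in DC, against 12.3 and 6 CPM in Si8. All of these were lower in DC. Ifi35 was also lower, at 19.3 and 21.7 CPM in DC, against 62.4 and 44.1 CPM in Si8 (-1.98 ± 0.21), and Bst2, the tetherin that holds budding virus at the membrane, at 37.8 and 41.7 CPM in DC, against 56.8 and 54.1 CPM in Si8 (-1.09 ± 0.14).

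A few effectors went the other way or passed no test. Isg20, an RNA exonuclease, had 32.9 and 30.7 CPM in DC, against 11.4 and 10.1 CPM in Si8 (0.96 ± 0.16, edgeR adjusted p = 0.00359). Slfn2, a Schlafen gene with a role in T cell quiescence, had 14.7 and 11.3 CPM in DC, against 1.86 and 0.614 CPM in Si8 (2.89 ± 0.43, edgeR adjusted p = 0.00211). These were the 2 genes higher in DC. Its neighbour in the family, Slfn4, had 220 and 135 CPM in DC, against 43 and 4.02 CPM in Si8, with the tissues apart but an edgeR adjusted p of 0.0639. Rsad2, the antiviral enzyme viperin, had 52.8 and 51.3 CPM in DC, against 36.9 and 18.7 CPM in Si8 (0.3 ± 0.29), and Trim30a had 4 and 5.14 CPM in DC, against 9.96 and 2.18 CPM in Si8 (-0.93 ± 0.63). Ifit2 and Ifit3 were too low to test, with no UMI in goblet-like cells of DC and 7 and 8 UMIs in those of Si8.

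All 6 tested transcription factors and feedback genes were lower in DC. Usp18, the protease that removes Isg15 and restrains the type I receptor, had 0.286 and 0.174 CPM in DC, against 13.7 and 4.09 CPM in Si8 (-5.83 ± 0.86, edgeR adjusted p = 0.002). Irf7, which drives interferon genes, had 23 and 16.9 CPM in DC, against 102 and 49.2 CPM in Si8 (-2.55 ± 0.36), and Irf1, a factor induced by interferon gamma, had 45.3 and 45.4 CPM in DC, against 127 and 79 CPM in Si8 (-1.8 ± 0.24). Stat2 and Irf9, both parts of the complex that binds the response element, had 8.44 and 9.49 CPM and 8.72 and 7.49 CPM in DC, against 25.3 and 12 CPM and 19.9 and 12.9 CPM in Si8. Irf8 had 18.9 and 24.5 CPM in DC, against 39.8 and 35.5 CPM in Si8, the smallest of the 6 differences (-1.4 ± 0.18). Nlrc5, the transactivator of MHC class I genes, had 2 UMIs in DC and 37 in Si8 and was not tested, its ratio of Si8 to DC being 14.4 with a 95% counting interval of 3.7 to 123. Among the RNA sensors, Ddx58, which encodes RIG-I, was lower in DC at 5.43 and 5.31 CPM against 12 and 8.93 CPM in Si8. Ifih1, which encodes MDA5, had 27.6 and 25.9 CPM in DC, against 34.5 and 21.4 CPM in Si8, and Dhx58, which encodes LGP2, had 1.57 and 3.4 CPM in DC, against 4.16 and 3.07 CPM in Si8. Both overlapped between the tissues and passed no test.

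The 3 antigen processing genes were lower in DC. Psmb8, a catalytic subunit of the immunoproteasome, had 31 and 32.1 CPM in DC, against 229 and 144 CPM in Si8 (-3.18 ± 0.25, edgeR adjusted p = 0.000159). Psmb9, another such subunit, had 17 and 19.1 CPM in DC, against 74.8 and 54.2 CPM in Si8 (-2.44 ± 0.2, edgeR adjusted p = 0.000199), and the peptide transporter Tap1 5.58 and 8.79 CPM in DC, against 46.3 and 16.2 CPM in Si8 (-2.68 ± 0.5, edgeR adjusted p = 0.0055). No library of DC overlapped with one of Si8 in these genes. Parp14, an ADP-ribosyltransferase, had 5.86 and 6.18 CPM in DC, against 29.5 and 14.6 CPM in Si8. Parp9 and its ubiquitin ligase partner Dtx3l had 7.15 and 7.83 CPM and 10.9 and 10.6 CPM in DC, against 18.5 and 12.3 CPM and 29 and 12.5 CPM in Si8, and the 3 genes of this group were lower in DC.

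The GTPases, some of which attack vacuoles that hold microbes, were less uniform, with 3 of 6 tested genes lower in DC. Gbp2 had 5.43 and 8.36 CPM in DC, against 61.5 and 9.68 CPM in Si8 (-2.93 ± 0.79), Igtp had 1.72 and 3.48 CPM in DC, against 18.6 and 6.14 CPM in Si8 (-2.75 ± 0.58), and Irgm1 had 20.7 and 13.4 CPM in DC, against 33 and 19.4 CPM in Si8 (-1.24 ± 0.31). For Gbp2 the second Si8 library lay close to DC, and for Irgm1 it lay between the DC libraries. Gbp7 had 10.4 and 9.4 CPM in DC, against 24.9 and 4.84 CPM in Si8, Gbp3 0.715 and 1.48 CPM in DC, against 2.74 and 1.3 CPM in Si8, and Irgm2 3.86 and 5.48 CPM in DC, against 11.8 and 3.48 CPM in Si8, and none of these passed. Iigp1, at 0 and 0.783 CPM in DC, against 4.49 and 0.409 CPM in Si8, and Gbp6, with no UMI in DC and 10 in Si8 under 1 of its identifiers, were not tested.

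Within the goblet-like cells the list was higher in 1 cell state than in another. Of the 3 goblet-like clusters, cluster 8 had the highest mean level of surface epithelium genes such as Mxd1 and Krt20 (7.39 as log2 of CPM + 10, mean over libraries) and cluster 3 the lowest (6.23). They are called surface-high and surface-low here, and none of the listed or surface genes took part in the clustering, though the clusters come from other genes of the same cells. By library the surface-high level was 7.845 and 7.564 in DC, against 7.32 and 6.838 in Si8. Cluster 2 of DC, at 6.813 and 6.84, was as high as surface-high Si8 2. Comparisons of the tissues inside the surface-high cluster are thus between cells of unlike surface level. The genes that led cluster 8 included the acute-phase gene Saa1 and Ido1, a tryptophan-degrading enzyme that interferon gamma is known to induce and that was not among the genes left out of the clustering. The surface-high cluster held 117 and 105 cells in DC, against 305 and 116 in Si8, with median UMIs per cell of 3936 and 3956 in DC, against 6232 and 13530 in Si8, while the surface-low cells had 12640 and 10710 in DC, against 18110 and 19420 in Si8. Of 36 members tested, 29 were higher in the surface-high cluster and 2 lower, with library as a block, while 21.3% of all tested genes were higher and 21.3% lower. The median log2 fold change was 1.89 over these members and -0.0165 over all genes. On library totals without TMM, 25 members were higher and 3 lower, and 18.7% of all calls were higher in place of 50%. With cells thinned to 2000 UMIs, 15 members were tested, with 12 higher and 1 lower. By CPM, 24 of the 29 were higher in the surface-high cluster in each of the 4 libraries. This was counted among members already called higher and not over all genes, so it cannot be read as particular to the list.

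The largest surface difference was in Slfn4, which had 2283 and 1829.7 CPM in the surface-high cluster of DC and 138 and 18.3 CPM in that of Si8, against 26.4 and 27.3 CPM in the surface-low cluster of DC and 6.93 and 1.43 CPM in that of Si8 (6.09 ± 0.39, edgeR adjusted p = 2.11e-07). Ddx60 had 124 and 38.5 CPM in the surface-high cluster of DC and 308 and 121 CPM in that of Si8, against 1.51 and 2.5 CPM in the surface-low cluster of DC and 24.3 and 9.73 CPM in that of Si8 (4.73 ± 0.34, edgeR adjusted p = 4.87e-07). In each library both genes were higher in the surface-high cluster. Gbp2 had 15.8 and 46.6 CPM in surface-high DC cells and 187 and 36.6 CPM in surface-high Si8 cells, against 3.52 and 3.59 CPM in surface-low DC cells and 14.2 and 2.29 CPM in surface-low Si8 cells (4.09 ± 0.29, edgeR adjusted p = 3.85e-07). Oas3 had 7.88 and 10.1 CPM in surface-high DC cells and 89.2 and 43.9 CPM in surface-high Si8 cells, against 0 and 0.156 CPM in surface-low DC cells and 10.7 and 3.43 CPM in surface-low Si8 cells (4.2 ± 0.38, edgeR adjusted p = 3.49e-06). Both were again higher in the surface-high cluster in 4 of 4 libraries. Ifit1bl1 (4.45 ± 0.41), Oasl2 (3.77 ± 0.27), Oasl1 (3.51 ± 0.27), Isg15 (3.18 ± 0.28) and Irf7 (3.15 ± 0.24) followed, while Psmb8 moved less (1.41 ± 0.19). Bst2 and Isg20 were lower in the surface-high cluster in every library. Isg20 had 5.91 and 4.05 CPM in the surface-high cluster of DC and 3.32 and 1.22 CPM in that of Si8, against 43.5 and 36.8 CPM in the surface-low cluster of DC and 17.9 and 19.5 CPM in that of Si8 (-2.39 ± 0.35), and Bst2 fell by 1.09 ± 0.27 on the log2 scale.

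By role, 16 of 18 tested effectors, 1 of 2 sensors, 4 of 5 factors and feedback genes, 3 of 5 GTPases, 2 of 3 antigen processing genes and all 3 of the Parp and Dtx3l group were higher in the surface-high cluster. The 5 tested genes that passed in neither direction were Irgm1, Irgm2, Ddx58, Psmb9 and Irf8. Slfn2 was not tested, yet had 138 and 95.1 CPM in the surface-high cluster of DC, against 2.26 and 4.06 CPM in the surface-low cluster of DC. The summed immune markers reached 0 and 8.1 CPM in the surface-high cluster of DC and 15.3 and 4.27 CPM in that of Si8, against 0.754 and 2.81 CPM in the surface-low cluster of DC and 6.35 and 5.72 CPM in that of Si8, with Ptprc, Cd3e and Cd3g at 0 UMIs in both clusters. Leaving out each cell with an immune UMI gave the same 29 higher and 2 lower.

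**Figure D2:**
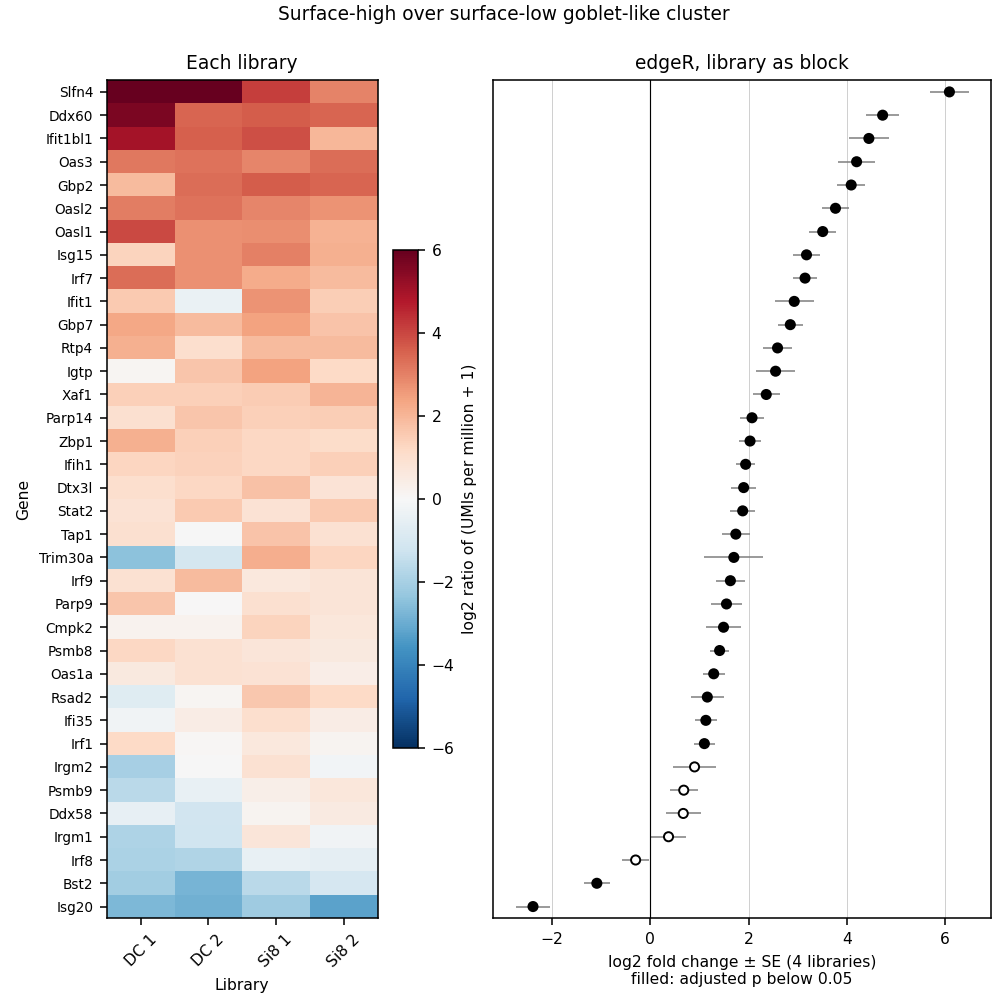
Surface-high over surface-low goblet-like cluster for the 36 tested members: left, log2 ratio of CPM + 1 in each library (colours end at 6 and -6); right, edgeR log2 fold change with SE over 4 libraries, filled where the adjusted p was below 0.05. Slfn4 leads at 6.09, and Isg20 lies lowest at -2.39.

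The surface-high cluster stood apart in the sum of the list as well. The 48 genes together took 3530 and 2820 CPM in the surface-high cluster of DC and 3688 and 1453 CPM in that of Si8. In the surface-low cluster they took 516 and 507 CPM in DC, against 1157 and 696 CPM in Si8. Much of the colonic sum was Slfn4, and without it the surface-high cluster had 1247 and 990 CPM in DC, against 3550 and 1434 CPM in Si8. Of the 45 identifiers with at least 20 UMIs in DC, 27 had their highest mean level over both libraries in the surface-high cluster. In Si8, 38 of 48 did so. The share over all genes was not computed, so these counts cannot be read as particular to the list. Some rest on few UMIs in the surface-high cells of DC, such as Dhx58 with 1 and 4 and Gbp3 with 0 and 2. The surface-high cluster was 6.39% and 2.22% of the cells in DC and 20.5% and 5.28% of those in Si8, and it held 13.3% and 4.25% of the list's UMIs in DC, against 26.3% and 5.75% in Si8. Without Slfn4 these shares were 5.47% and 1.62% in DC, against 25.7% and 5.7% in Si8. The cluster's share of all UMIs was lower than these in every library, at 1.94% and 0.784% in DC, against 9.46% and 3.13% in Si8.

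**Figure D3:**
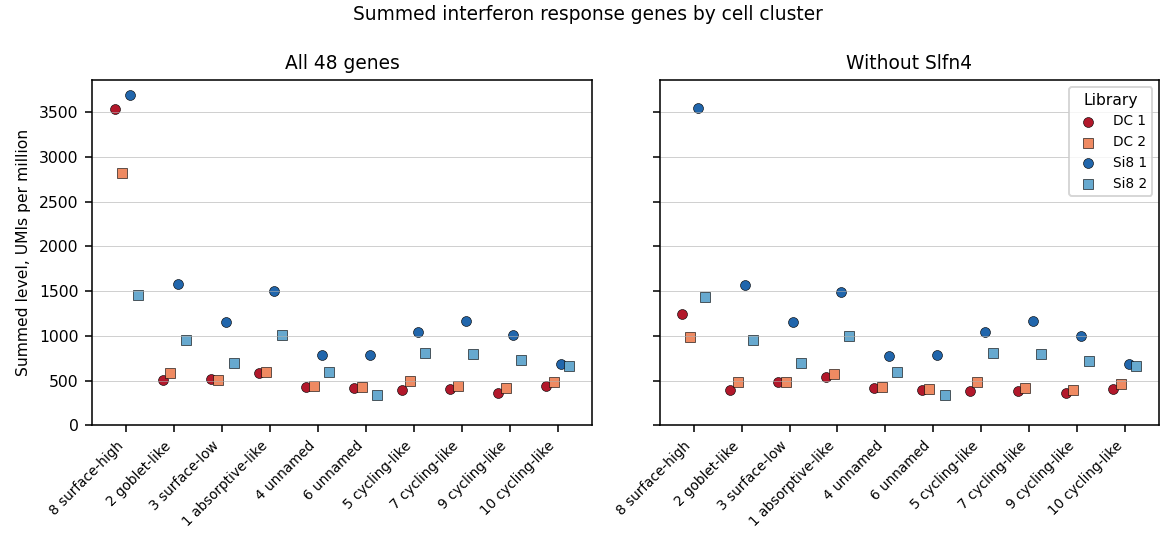
Summed level of the listed genes in UMIs per 1000000 UMIs by library, for all 48 genes (left) and without Slfn4 (right). All clusters but the enteroendocrine-like one are drawn, and cluster 10 had 13 cells in Si8 1. The surface-high cluster lies above the other clusters in all 4 libraries on both sides, and on the left it reaches 3530, 2820, 3688 and 1453.

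Because the surface-high cluster made up 18% and 9.22% of the goblet-like cells in DC, against 42.8% and 14.8% in Si8, the tissues were also compared inside it and without it, both chosen after the data were seen. Without the surface-high cluster 33 of 43 tested members were lower in DC and 4 higher, against 23.2% and 22.5% of all genes, and the median was -1.56. On library totals the split was 29 lower and 4 higher, and 84.3% of all calls went up, in place of 49.2%. Slfn4 then passed, at 58.8 and 58.9 CPM in DC, against 9.06 and 2.23 CPM in Si8 (3.02 ± 0.42, edgeR adjusted p = 0.000834), and so did Rsad2 at 53.5 and 50.6 CPM in DC, against 25.1 and 18.5 CPM in Si8 (0.71 ± 0.15, edgeR adjusted p = 0.00552). Within the surface-high cluster 34 members were tested, with 18 lower and 2 higher in DC, against 7.58% and 9.10% of all genes. Scaled by library totals, 16 were lower and 2 higher, and 76.5% of all calls were higher in place of 54.6%. The count was 13 without Si8 1 and 31 without Si8 2. Slfn2 was 5.43 ± 0.5 and Slfn4 4.29 ± 0.67 log2 units higher in the surface-high cells of DC. On the lower side stood Isg15 (-3.87 ± 0.64), Psmb9 (-3.34 ± 0.48), Oas3 (-3.29 ± 0.53), Tap1 (-3.1 ± 0.64) and Oasl2 (-3.1 ± 0.58). Usp18 had no UMI in the surface-high cells of DC and 74 in those of Si8, which is lower in DC by at least 6.1-fold, and Ifit1 had 1 UMI in DC and 184 in Si8, a ratio of Si8 to DC of 45.5 with an interval of 8.07 to 1807.

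The surface difference itself was then set between tissues by an interaction term, also chosen after the data were seen. Of 42 members tested 4 had a smaller surface difference in DC and 2 a larger one, against 1.81% and 3.20% of all genes. Slfn4 (2.02 ± 0.46, edgeR adjusted p = 0.000594) and Ddx60 (1.36 ± 0.44, edgeR adjusted p = 0.0399) had the larger difference in DC. Rsad2 had 43.3 and 66.8 CPM in the surface-high cluster of DC and 72.1 and 61.5 CPM in the surface-low one, while in Si8 the surface-high cluster had 69.7 and 20.1 CPM and the surface-low one 22.2 and 8.3 CPM (-1.85 ± 0.37, edgeR adjusted p = 5.5e-05). In Si8 it was higher in the surface-high cluster in both libraries, in DC in 1 of 2. Trim30a (-4.56 ± 1.18, with 1 UMI in the surface-high cells of DC), Irgm1 (-2.11 ± 0.61) and Psmb9 (-1.57 ± 0.5) also had the smaller difference in DC. None of the 6 passed without DC 1. The balance of directions was not stable, with 0 smaller and 3 larger with doublets kept, and 3 smaller and 0 larger at Leiden resolution 1.5. In both settings another cluster served as surface-low, so the contrast was not the same one. That cluster had Sval1 and Mptx1 among its top genes with doublets kept, and Reg4 and Ccl9 at resolution 1.5.

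Absorptive-like cells showed the tissue difference too. In them 25 of 39 tested members were lower in DC and 4 higher, against 16.5% and 17.0% of all genes, with a median of -1.23. The members had 23 lower and 4 higher with library totals alone, where 68.3% of all calls were higher in place of 50.8%. Psmb8 had 32.5 and 32.9 CPM in DC, against 268 and 205 CPM in Si8 (-3.08 ± 0.2, edgeR adjusted p = 3.95e-07). Oas3 had 0 and 0.306 CPM in DC, against 13.6 and 3.57 CPM in Si8 (-5 ± 0.88), and Ddx60 had 3.5 and 3.59 CPM in DC, against 40.8 and 9.52 CPM in Si8 (-2.83 ± 0.59). These 3 had no overlap between tissues. Isg15 had 2.86 and 8.26 CPM in DC, against 60 and 13.6 CPM in Si8 (-2.53 ± 0.6), Oasl2 2.55 and 4.05 CPM in DC, against 37.5 and 10.6 CPM in Si8 (-2.76 ± 0.54), and Psmb9 23.2 and 28.8 CPM in DC, against 114 and 95.9 CPM in Si8 (-2.2 ± 0.19). Irf8 (-1.27 ± 0.18), Irf1 (-0.56 ± 0.17) and Ifi44 (-2.44 ± 0.71) were also lower in DC. Of these the Irf1 call was lost without DC 2 (-0.46) or without Si8 1 (-0.38), and the Ifi44 call without DC 1 (-2.12). On the other side Isg20 had 31.2 and 28.4 CPM in DC, against 3.28 and 3.31 CPM in Si8 (2.94 ± 0.25, edgeR adjusted p = 2.9e-06), and Slfn4 had 50.3 and 23.7 CPM in DC, against 14.1 and 2.25 CPM in Si8 (2.39 ± 0.59). Rsad2 (1.34 ± 0.47) and Trim30a (1.27 ± 0.39) were called higher in DC too. The Rsad2 call was lost without Si8 2 (0.18), and the Trim30a call without Si8 2 (0.79) or DC 2 (0.96). With DESeq2 the calls of Isg15 (-2.97), Slfn4 (1.93), Rsad2 (0.96), Trim30a (1.15) and Irf1 (-0.57) were lost, and in thinned cells those of Slfn4 (1.77), Rsad2 (1.04) and Irf1 (-0.45). The Irf1 call was also lost with library totals (-0.32), and the Rsad2 call without cells that had an immune UMI (1.17) and at Leiden resolution 1.5 (1.34).

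Set against goblet-like cells of the same library, absorptive-like cells had less of part of the list. Of 41 tested members 12 were lower in absorptive-like cells and 1 higher, against 15.5% and 12.8% of all genes, with a median of -0.68. Oasl1 had 5.41 and 6.96 CPM in the absorptive-like cells of DC and 43.2 and 14.6 CPM in those of Si8, against 20.5 and 18.2 CPM in the goblet-like cells of DC and 91.6 and 41.9 CPM in those of Si8 (-1.82 ± 0.15, edgeR adjusted p = 0.000607). Slfn4 (-2.25 ± 0.19), Gbp2 (-2.09 ± 0.44), Oas3 (-1.99 ± 0.23), Usp18 (-1.9 ± 0.49), Rsad2 (-1.65 ± 0.27) and Zbp1 (-1.35 ± 0.27) were lower as well, and Bst2 fell by 0.99 ± 0.2 and Ifih1 by 0.5 ± 0.12. The gene that was higher in absorptive-like cells was Irf8, with 49.3 and 64.1 CPM in absorptive-like cells of DC and 113 and 122 CPM in those of Si8, against 18.9 and 24.5 CPM in goblet-like cells of DC and 39.8 and 35.5 CPM in those of Si8 (1.15 ± 0.1, edgeR adjusted p = 0.000831). Scaled by library totals, 9 members were lower and 6 higher, and 78.7% of all calls were higher in place of 45.3%. Without the surface-high cluster among the goblet-like cells the split was 8 lower and 6 higher, and Slfn4 (-0.65), Oas3 (-0.89) and Ifih1 (-0.25) no longer passed. Without Si8 1 there were 7 calls and without Si8 2 there were 6. Bst2 and Gbp2 lost their calls without Si8 1 and also without Si8 2, Zbp1 without Si8 1 and Usp18 without DC 1, and Ifih1 lost its call whichever library was left out.

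The same fit with an interaction term tested whether this class difference was the same in both tissues. Of 44 tested members 22 had a positive term and 1 a negative one, against 11.8% and 9.93% of all genes. A positive term means that the tissue difference was smaller in absorptive-like than in goblet-like cells when both had the gene lower in DC. On library totals the members had 15 positive and 2 negative terms, and 17% of all calls were positive in place of 54.3%. Rtp4 had 5.41 and 5.97 CPM in absorptive-like cells of DC and 2.15 and 2.35 CPM in goblet-like cells of DC, but 9.85 and 6.09 CPM in absorptive-like cells of Si8 and 31.6 and 11.2 CPM in goblet-like cells of Si8 (2.9 ± 0.34, edgeR adjusted p = 2.05e-06). Its class difference thus ran in opposite directions in the 2 tissues. Irf1 had 84.7 and 74 CPM in absorptive-like cells of DC, 45.3 and 45.4 CPM in goblet-like cells of DC, 109 and 90 CPM in absorptive-like cells of Si8 and 127 and 79 CPM in goblet-like cells of Si8 (1.14 ± 0.15, edgeR adjusted p = 1.33e-05). Ifit1 (3.66 ± 0.48), Ifit1bl1 (2.28 ± 0.36), Gbp2 (2.12 ± 0.32) and Isg15 (2.04 ± 0.3) had positive terms as well, and Slfn2 (-2.89 ± 0.53) the negative one. In the absorptive-like cells of DC 2, 28 of the 46 Ifit1 UMIs were in 1 cell. The count was 9 without DC 2 and 15 without the surface-high cluster. Without DC 2 the terms of Ifit1 (2.32), Gbp2 (1.79) and Isg15 (0.75) no longer passed.

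Cycling-like cells had lower levels of most members than goblet-like cells of the same library. Of 38 tested members 29 were lower in cycling-like cells and 1 higher, against 25.4% and 24.4% of all genes, with a median of -1.17. Scaling by library totals gave 18 that were lower and 2 that were higher, and 80.3% of all calls were higher in place of 49%. Ddx60 had 1.81 and 1 CPM in cycling-like cells of DC and 6.9 and 2.96 CPM in those of Si8, against 10.4 and 3.92 CPM in goblet-like cells of DC and 109 and 28.6 CPM in those of Si8 (-3.61 ± 0.44, edgeR adjusted p = 0.00157). Slfn4 (-3.57 ± 0.28), Oasl1 (-3.3 ± 0.35), Slfn2 (-3.12 ± 0.48), Gbp2 (-3.04 ± 0.6) and Rsad2 (-2.93 ± 0.61) were the next largest. Irf8 was again the gene that was higher, at 45.7 and 59.4 CPM in cycling-like cells of DC and 106 and 108 CPM in those of Si8 (0.89 ± 0.12, edgeR adjusted p = 0.00203). Neither the antigen processing genes nor the Parp and Dtx3l group passed in either direction, with folds of -0.31 to 0.2 and of -0.66 to -0.36. The count of calls was 17 without Si8 1 and 17 without Si8 2, where Bst2, Ifi35 and Irf1 lost theirs in both cases.

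Across all kept cells, whatever their cluster, 27 of 47 tested members were lower in DC and 2 higher, against 11.9% and 12.9% of all genes, with a median of -1.36. Library totals alone gave 23 members that were lower and 3 that were higher, and 80.6% of all calls were higher in place of 52%. The count was 14 without DC 1 and 16 without DC 2, and the calls of Isg20 and Slfn2, the 2 that were higher, were lost in both cases, as was that of Irf1. The Irf8 call was also lost without DC 1 and that of Ddx60 without DC 2. No GTPase passed across all cells, with folds of -2.4 to -0.78 over 7 tested. Summed immune markers differed between libraries here, at 1.41 and 13.5 CPM in DC, against 386 and 12.9 CPM in Si8. With every cell that had an immune UMI left out, 29 members were lower and 1 higher.

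The replicates of Si8 differed in the level of the list. In goblet-like cells Si8 1 was above Si8 2 in 45 of 45 identifiers with at least 20 UMIs over the pair of libraries, with a median log2 ratio of CPM + 1 of 1.04, while 48.7% of all such genes were higher in Si8 1. In the surface-high cluster it was above in 39 of 41 with a median ratio of 1.34, in the surface-low cluster in 34 of 36 (0.743), in absorptive-like cells in 34 of 38 (0.589) and in cycling-like cells in 37 of 39 (0.575). Of all such genes, 48.4%, 44.4%, 41.1% and 48.6% were higher in Si8 1, in the same order of populations. In DC, DC 1 was above DC 2 in 19 of 38 genes of goblet-like cells (0.0138), in 12 of 16 of the surface-high cluster (0.419), in 15 of 34 of the surface-low cluster (-0.0598), in 11 of 37 of absorptive-like cells (-0.0818) and in 7 of 38 of cycling-like cells (-0.216). Of all such genes, 48.6%, 49.8%, 47.6%, 48.6% and 54.3% were higher in DC 1, in the same order. The shares of surface-high cells in Si8 differed in the same direction as the list, at 42.8% of goblet-like cells in Si8 1 and 14.8% in Si8 2. So did the immune markers, at 9.41 and 3.95 CPM in goblet-like cells, and the part of either in the difference between replicates was not tested. Both Si8 libraries lay above both DC libraries in Isg15, Oas3, Psmb8 and Zbp1.

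**Figure D4:**
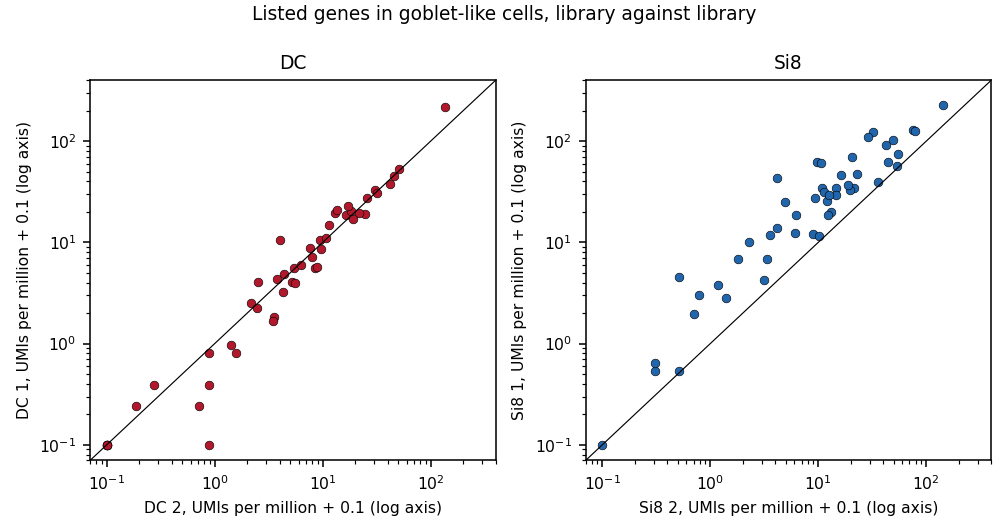
Each listed gene in goblet-like cells, replicate 1 (vertical) against replicate 2 (horizontal), in UMIs per 1000000 UMIs plus 0.1 on log axes, with the line of equal levels. The DC points lie on both sides of the line (19 of 38 above), and the Si8 points with at least 20 UMIs all lie above it (45 of 45).

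At the level of single cells the members were detected together more often than independent detection gives. Each cell was thinned to 2000 UMIs so that depth was equal, and the number of gene pairs seen in the same cell was divided by the number expected if genes were detected independently within a cluster and library. The ratio was 1.11 and 1.36 in DC, against 1.35 and 1.21 in Si8 for the 48 genes, and 1.17 and 1.34 in DC, against 1.52 and 1.49 in Si8 for the 24 effectors. All other genes in the same range of detection gave 1.005 to 1.015. The listed genes outside the effectors gave 1.1 and 1.48 in DC, against 1.25 and 1.13 in Si8. Within the surface-high cluster the ratio was 1.22 and 1.18 in DC, against 1.35 and 1.41 in Si8, and within the absorptive-like cluster it was 1.17 and 1.71 in DC, against 1.56 and 1.28 in Si8. In thinned surface-high cells of Si8 1, the 81 cells with an Isg15 UMI had a mean of 7.89 other members and the 224 without it 4.07, and in Si8 2 the 15 with it had 3.87 and the 101 without it 2.03. Other genes split such cells less evenly. In DC 1 the means with and without the gene ran from 4.71 and 2.51 for Ddx60 to 2.93 and 2.75 for Psmb8. In DC 2 they were 3.13 and 2.46 for Irf7, 2.02 and 0.875 for Slfn4 and 2.69 and 2.55 for Oasl1. Psmb8 went the other way there, at 2.13 and 2.62. These are descriptions of cells within a library, which are not replicates.

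**Figure D5:**
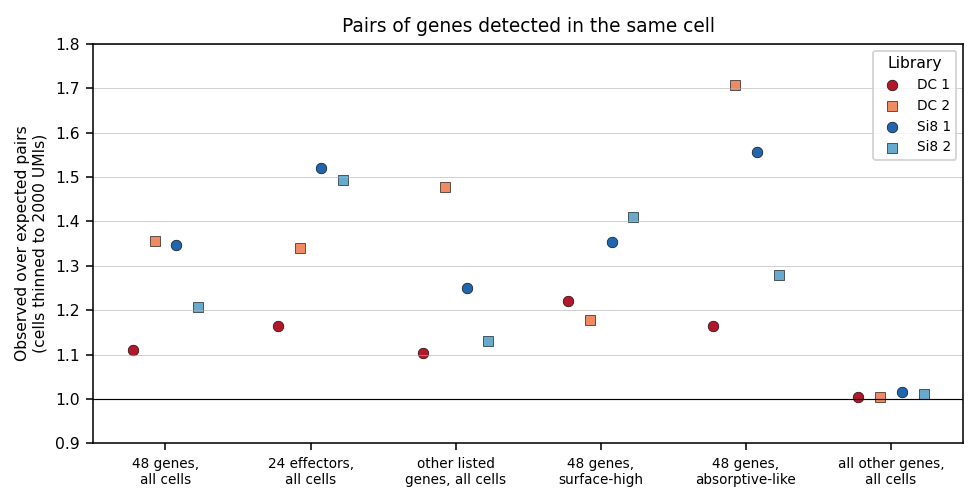
Observed over expected pairs of genes in the same cell at 2000 UMIs per cell, by gene group and library, where 1 means independence. The listed genes lie between 1.1 and 1.71, and all other genes lie close to 1.

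Cells with at least 4 different effectors made up 17.2% (95% exact Clopper-Pearson interval 15.4 to 19) and 15% (14 to 16) of cells in DC, against 61.4% (58.8 to 63.9) and 43.9% (41.8 to 46) in Si8. At 2000 UMIs per cell the shares were 0.765% and 0.296% in DC, against 9.86% and 0.865% in Si8, with Si8 2 close to DC 1. In the surface-high cluster at 2000 UMIs they were 11.1% and 5.71% in DC, against 33.1% and 6.03% in Si8. In the surface-low cluster they were 0 of 318 cells, which allows a share of up to 0.943% at a floor of 3 counts and of 1.15% by the exact interval, and 0.168% in DC, against 3.27% and 0.538% in Si8. The tissues overlapped in the surface-high cluster at equal depth. No cluster is known to lack these genes, so the share that free RNA in droplets gives was not measured.

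A small number of colonic cells carried a large part of the list at once. Cells with at least 10 different effectors, a threshold chosen after the data were seen, numbered 3 of 1831 and 12 of 4724 in DC, and 145 of 1491 and 65 of 2197 in Si8. Of the 15 colonic cells 8 were absorptive-like, 4 cycling-like and 3 goblet-like, and none had an immune marker UMI. These 15 cells, 0.229% of the cells from DC, held 42 of the 62 Ifit1 UMIs of DC (67.7%) and 60 of its 298 Isg15 UMIs (20.1%), but 1.2% of its Rsad2 UMIs and 0.941% of its Slfn4 UMIs. Each of these genes is an effector, so the shares rest on values that also picked the cells. Outside the effectors, the cells held 1.23% of the Irf1 UMIs of DC and 8.77% of its Gbp2 UMIs. One absorptive-like cell of DC 2 with 10913 UMIs had 19 effectors, with 28 UMIs of Ifit1, 18 of Rsad2, 15 of Ifit1bl1 and 14 of Isg15. That cell alone held 60.9% of the Ifit1 UMIs of the absorptive-like cells of DC 2. A cycling-like cell of the same library instead had 65 UMIs of GTPases, with 26 UMIs of Irf1 and 13 of Iigp1. In Si8 1, 64 of the 145 such cells were in the surface-high cluster and 43 in the other goblet-like clusters, and 16 had an immune marker UMI. In Si8 2, 15 of the 65 were in the surface-high cluster and 29 in the other goblet-like clusters, and 8 had an immune marker UMI. These counts are at full depth, which was not equal, with a median of 13481 and 12286 UMIs per cell in DC, against 17810 and 21041 in Si8.

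The genes that make and receive interferon gave the following. None of the 9 interferon genes looked up had more than 1 UMI in any library, so differences between tissues in them were not detectable at this depth. Of 25 pathway genes tested in goblet-like cells 12 were lower in DC and 1 higher, beside 20.8% and 20.2% of all genes. The type I receptor subunit Ifnar2 had 1.29 and 1.04 CPM in DC, against 5.25 and 5.39 CPM in Si8 (-2.81 ± 0.3, edgeR adjusted p = 0.000543), and its partner Ifnar1 6.58 and 7.57 CPM in DC, against 5.8 and 6.61 CPM in Si8 (-0.42 ± 0.22). The interferon lambda receptor subunit Ifnlr1 had 6.29 and 5.4 CPM in DC, against 4.38 and 3.95 CPM in Si8 and passed no test (-0.13 ± 0.24), while Il10rb, the subunit it shares with other cytokines, had 42.9 and 29 CPM in DC, against 49.7 and 47 CPM in Si8 (-1.05 ± 0.2). For the interferon gamma receptor, Ifngr1 had 100 and 87.5 CPM in DC, against 148 and 105 CPM in Si8 (-1.05 ± 0.2), and Ifngr2 45.9 and 40 CPM in DC, against 51.1 and 47.6 CPM in Si8 (-0.82 ± 0.15). With library totals alone the pathway genes had 6 lower and 9 higher. The feedback inhibitor Socs1 was lower in DC, at 0.572 and 0.783 CPM against 6.35 and 2.32 CPM in Si8 (-3.17 ± 0.61), and Tmem173, which encodes the DNA sensing adaptor STING, was higher, at 3.58 and 2.87 CPM in DC, against 0.656 and 0.682 CPM in Si8 (1.62 ± 0.38).

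In the surface-high cluster 12 of 23 tested pathway genes were higher than in the surface-low cluster and none was lower, beside 21.3% and 21.3% of all genes. Trim25, a ubiquitin ligase that activates RIG-I, had 280 and 158 CPM in the surface-high cluster of DC and 281 and 137 CPM in that of Si8, against 58.8 and 55.1 CPM in the surface-low cluster of DC and 45.9 and 34.1 CPM in that of Si8 (2.67 ± 0.22, edgeR adjusted p = 1.41e-06). The receptor subunits Ifnlr1 (1.63 ± 0.38), Ifngr1 (1.33 ± 0.2) and Ifngr2 (1.19 ± 0.21) were among the 12, while Ifnar1 did not pass (0.7 ± 0.4). With library totals alone 6 pathway genes were higher and 2 lower. In absorptive-like cells 7 of 25 pathway genes were lower in DC and 4 higher (all genes, 16.5% and 17.0%), and across all cells 6 of 26 were lower and 2 higher (all genes, 11.9% and 12.9%). Between classes 3 of 26 were lower in absorptive-like than in goblet-like cells and 2 higher (all genes, 15.5% and 12.8%), and 12 of 26 were lower in cycling-like than in goblet-like cells and 2 higher (all genes, 25.4% and 24.4%).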

How the data were processed

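RNA of single cells was counted with 10x Genomics chemistry, and the authors deposited 1 matrix of raw UMI counts per gene and cell for each library, made with Cell Ranger 2.1.1 on mm10, per the submitters' processing notes. The filters behind the deposited barcodes are not given in the sources used here. Cells under 500 genes or over 20% mitochondrial counts were left out, and those with the highest Scrublet scores were removed at 0.8% per 1000 cells, since the caller's own threshold marked 14, 0, 2 and 2 cells. Cells were clustered with scanpy 1.11.5 on 2000 variable genes, 30 components and 5 neighbours per library (Leiden resolution 1.0), without the listed, pathway, marker and surface genes. Clusters were named from marker lists with at least 3 markers. The members and lists were chosen with earlier results of these data known.

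Counts were summed per library and cell class and tested with edgeR 4.0.16 (TMM, filterByExpr with a minimum count of 10, quasi-likelihood test, Benjamini-Hochberg adjustment over all tested genes, threshold 0.05) in R 4.3.3. Fold changes are log2 with the SE from the test. Contrasts between classes had library as a block. With 2 libraries against 2, an exact permutation test cannot go below p = 0.333. The full-depth totals behind each sum limit the precision, and intervals and floors of 3 counts cover counting error only. Genes were named by rule: of the members that passed, the 6 with the largest change in each direction and the 4 highest in mean CPM, with the interferon receptors. A further gene that the rule names is not reported here. Other genes are given by level. Genome positions come from GENCODE M21, in which 28418 of 28694 identifiers were found. The edgeR fits of the goblet-like tissue contrast and of the surface contrast were tried on simulated sums with known changes. DESeq2 1.42.0, other scalings, thinned cells, kept doublets and left-out libraries were tried as alternatives.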

Additional observations from a re-analysis of the deposited data

Results flagged for a closer look

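The difference between absorptive-like and goblet-like cells was tested between DC and Si8, and the genes below differed by that interaction test in edgeR (log2, DC minus Si8). Ifit1 differed by 3.66 ± 0.48, Rtp4 by 2.9 ± 0.34 and Ifit1bl1 by 2.28 ± 0.36. Gbp2 differed by 2.12 ± 0.32, Isg15 by 2.04 ± 0.3, and Irf1 and Irf7 by 1.14 each. Bst2 differed by 0.85 ± 0.17 and Ifi35 by 0.64 ± 0.17. Slfn2 went the other way at -2.89 ± 0.53. Ifi44 had a fitted value of 4.71 ± 1.64, which depends on the prior count because the goblet-like cells of DC had no UMI of it, and it was -0.21 without DC 2. Without DC 2, the calls of Ifit1, Gbp2, Isg15 and Ifi35 were also lost.

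The difference between the surface-high and surface-low clusters was tested between tissues in the same way, after the data were seen. It was larger in DC for Slfn4, by 2.02 ± 0.46, and for Ddx60, by 1.36 ± 0.44. It was smaller in DC for Trim30a (-4.56 ± 1.18), Irgm1 (-2.11 ± 0.61), Rsad2 (-1.85 ± 0.37) and Psmb9 (-1.57 ± 0.5). None of these 6 calls held without DC 1.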

How the results depend on the processing

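The counts of listed genes called moved as follows, and the cause was not tested. Thinning to 2000 UMIs gave 6 for tissue in absorptive-like cells, 14 for cycling-like against goblet-like cells, 13 for the surface contrast, 6 for the tissue by class interaction and 0 for the tissue by surface interaction, with fewer genes tested. Without library as a covariate the counts were 0 for absorptive-like against goblet-like cells, 11 for cycling-like cells and 17 for the surface contrast. With tissue in place of library the interactions gave 4 and 0. DESeq2 gave 13 for the class interaction and 2 for the surface interaction. Goblet-like cells of the surface-high cluster alone gave 20, and the class interaction without that cluster 15. Keeping doublets or Leiden resolution 1.5 gave 3 each for the surface interaction, where Ddx60 turned to -0.19 at resolution 1.5. Both settings took another cluster as surface-low, so the contrast differed from the main one. For the counts of 0, the members at an unadjusted p under 0.05 in edgeR were 4 for the classes without covariate, and 4, 7 and 9 for the surface interaction when thinned, with tissue in place of library and without DC 1.

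Leaving out 1 library gave 14 to 39 calls across all cells, 36 to 44 in goblet-like cells, 26 to 32 in absorptive-like cells, 6 to 18 for absorptive-like against goblet-like, 17 to 34 for cycling-like, 27 to 36 for the surface contrast, 9 to 25 for the class interaction and 0 to 7 for the surface interaction. Ifi44 in the class interaction ranged from -0.21 without DC 2 to 5.51 without DC 1.

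Cells with several effectors averaged 16.1% in DC and 52.6% in Si8. With at least 3 genes they were 35.7% and 70.3%, with at least 5 they were 6.37% and 37.3%, and at 2000 UMIs with at least 4 they were 0.53% and 5.36%. At 1000 and 4000 UMIs the co-detection ratio, as a mean over both libraries, was 1.33 and 1.17 for DC, against 1.34 and 1.2 for Si8. At 4000 UMIs 76 cells of DC 1 and 102 of DC 2 were too shallow and were left out, 59 and 54 of them surface-high. No cell of Si8 was left out. Single DC libraries ran from 1.08 to 1.52 and single Si8 libraries from 1.16 to 1.43. Within clusters the ratios also moved with depth. At 1000 UMIs the absorptive-like ratios were 1.86 and 2.31 in DC, against 1.69 and 1.06 in Si8. At 4000 UMIs they were 1.16 and 1.41 in DC, against 1.38 and 1.13 in Si8. The surface-high ratios at 1000 UMIs were 1.08 and 1.21 in DC, against 1.48 and 1.34 in Si8.

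The labels number replicates but do not state what a number shares. Deviations of same-numbered libraries correlated at 0.271 over 10633 genes, with 2 pairs only. With the replicate block the counts were 36 across all cells, 38 in goblet-like cells and 30 in absorptive-like cells.

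Of 154 alternative values for named genes of the goblet-like tissue contrast, 153 stayed on their side of the threshold, as did 134 of 144 across all cells, 146 of 163 in absorptive-like cells, 106 of 134 for absorptive-like against goblet-like, 111 of 126 for cycling-like, 123 of 125 for the surface contrast, 122 of 152 for the class interaction and 34 of 76 for the surface interaction. The small surface-high sums of DC, and genes at a few UMIs, limit what could be tested.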
